A study of Mus musculus with 12 samples.

Results

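The proteasome is the protease complex that degrades ubiquitin-tagged proteins, and 43 of its genes were followed here in the striatum of Huntington's disease (HD) transgenic mice with and without p62. The set holds the subunits of the constitutive 20S core and of the 19S cap, the activators and the inhibitor that bind the core, and factors that assemble both. A gene was taken where a probe set of the array carries its symbol and no other, and where several did, the brightest was used. This gave 42 of the 43 genes out of 19248 genes measured: 14 core subunits, 17 cap subunits, 5 activators or inhibitors and 6 assembly factors. Adrm1, a ubiquitin receptor of the cap, was not analysed here for expression.

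Striatum, the forebrain nucleus that loses most neurons in HD, was dissected from 12 mice aged 8 weeks, 3 in each of 4 groups. HD_p62KO mice carried the HD transgene and lacked p62 (labelled HD;p62-_-), HD_p62WT mice carried the transgene with normal p62, NT_p62KO mice were non-transgenic without p62, and NT_p62WT mice were non-transgenic with normal p62. The sources used here name neither the transgenic line nor the knockout construct, nor the sex of the mice. Values are log2 expression values per gene, differences are on the log2 scale with the standard error (SE) of the fit, and a gene is said to rise or fall where the adjusted p of limma's test over all genes was below 0.05.

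In the 26S proteasome, 2 outer rings of alpha subunits gate a chamber formed by 2 inner rings of beta subunits, of which some carry the proteolytic sites. The 19S cap binds ubiquitinated substrates, removes the ubiquitin and threads the unfolded chain into the core with a ring of ATPases. PA28 and PA200 activators can take the cap's place and need no ubiquitin. p62, encoded by Sqstm1, binds ubiquitinated cargo and hands it to autophagy, the other main route of protein degradation. In mammals the transcription factor NFE2L1 raises proteasome genes together when proteasome activity is low.

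Sqstm1 fitted the labels, with log2 values of 8.92, 9.13 and 9.02 in HD_p62KO mice against 11.75, 11.26 and 11.51 in HD_p62WT mice, and of 8.44, 8.52 and 8.49 in NT_p62KO mice against 11.19, 11.35 and 11.24 in NT_p62WT mice. The tissue carried its defining neurons' markers: 11 of 14 medium spiny neuron markers were measured, and their mean log2 value per mouse lay between 10.76 and 10.92 in HD mice and between 11.31 and 11.58 in non-transgenic mice. Of these 11, 10 fell in HD (mean HD difference, 15% of all genes) and Tac1 rose, with a median of -0.59. In whole tissue, fewer cells of a type and less RNA per cell cannot be told apart, and proteasome transcripts come from every cell type. The part of these marker differences in the proteasome values was not tested. Choroid plexus markers, which reflect tissue from the adjoining ventricle, varied between -0.98 and 1.39 around their mean across mice.

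In HD striatum, more proteasome genes rose than fell, each class held some that rose, and most differences were small. Averaged over the p62 genotypes, 25 of 42 rose and 0 fell, against 19.9% of all genes that rose and 15% that fell. The median difference of the 42 was 0.20, against -0.022 over all genes, and 38 of 42 were positive. Psmd1 (0.79 ± 0.13, or 1.73-fold), Psme3 (0.64 ± 0.13) and Psme4 (0.53 ± 0.097) had the largest mean differences, and Psmg1, Psmc5, Psma4 and Psmc3 had negative ones that did not pass (-0.10 ± 0.060, -0.049 ± 0.054, -0.030 ± 0.055 and -0.010 ± 0.055). Proteasome probe sets are bright, with 40 of 42 in the brighter part of the array. Among the brighter 50% of genes, fitted alone, 28 of 40 members rose, where 33.1% of those genes did and their median was 0.060. In 9 of 42, all 6 HD mice were above all 6 non-transgenic mice (10.5% of all genes): Psma3, Psma7, Psmb2, Psmc6, Psmd1, Psme1, Psme2, Psme4 and Psmf1.

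Without p62, 18 of 42 rose and 0 fell, against 13.3% of all genes that rose and 8.34% that fell, with a median of 0.23 (all genes -0.019). Bright genes as a whole stood higher: in the fit of the brighter 50%, 25.8% of genes rose, with a median of 0.079. In that fit 23 of 40 members rose. With p62 present, 2 of 42 rose (Psmd1 and Psme4) and 0 fell, against 3.85% of all genes that rose and 3.24% that fell, with a median of 0.13 (all genes -0.0091). That median was 0.080 without HD_p62WT 1 and 0.19 without HD_p62WT 2. The share with p62 present is near that of all genes, so that it gives no result about the set beyond those genes. In the fit of the brighter 50%, 5 of 40 members rose with p62, where 11.1% of those genes did and their median was 0.046. HD mice did not overlap the non-transgenic mice, and were higher, in 32 of 42 genes without p62 (22.3% of all genes) and in 13 of 42 with p62 (17.8%). Both p62 genotypes gave the same sign in 38 of 42, against 15562 of 19248 genes, and these HD differences share no mice. The difference was larger without p62 in 38 of 42 genes, against 9873 of 19248. That count was not made for the brighter genes alone, whose median was also larger without p62. The test of that difference passed for 0 of 42 genes (limma with adjustment over all genes, 0% of all genes), and 1 had an unadjusted p below 0.05, against 3.45% of all genes.

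**Figure D1:**
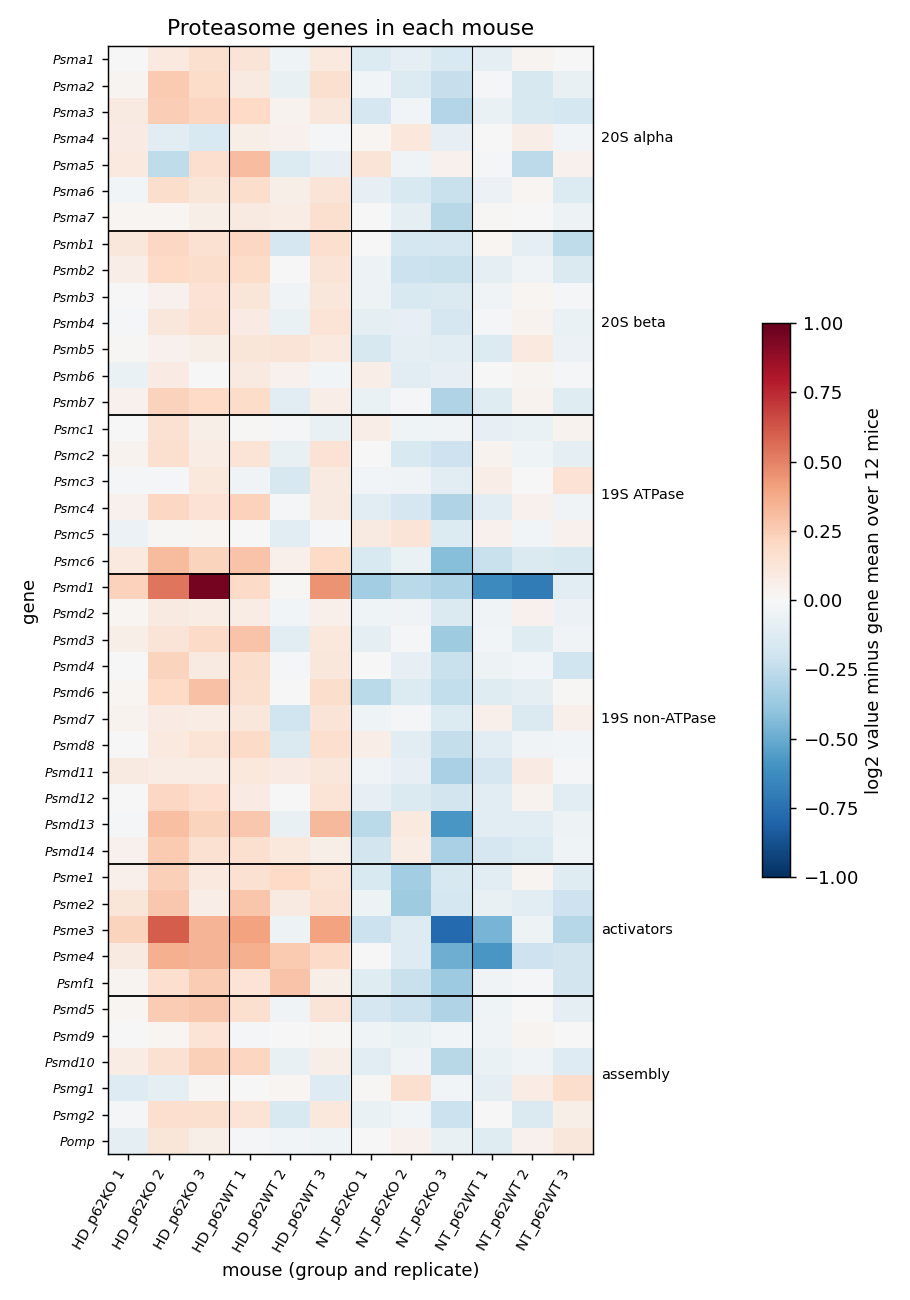
Log2 value of each of the 42 proteasome genes in each of the 12 mice, minus that gene's mean over all mice (red above, blue below, scale -1 to 1), with genes grouped by class and mice by group. Most rows are red in HD mice and blue in non-transgenic mice, and HD_p62KO 1, HD_p62WT 2 and NT_p62KO 3 are the palest or bluest columns of their groups.

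**Figure D2:**
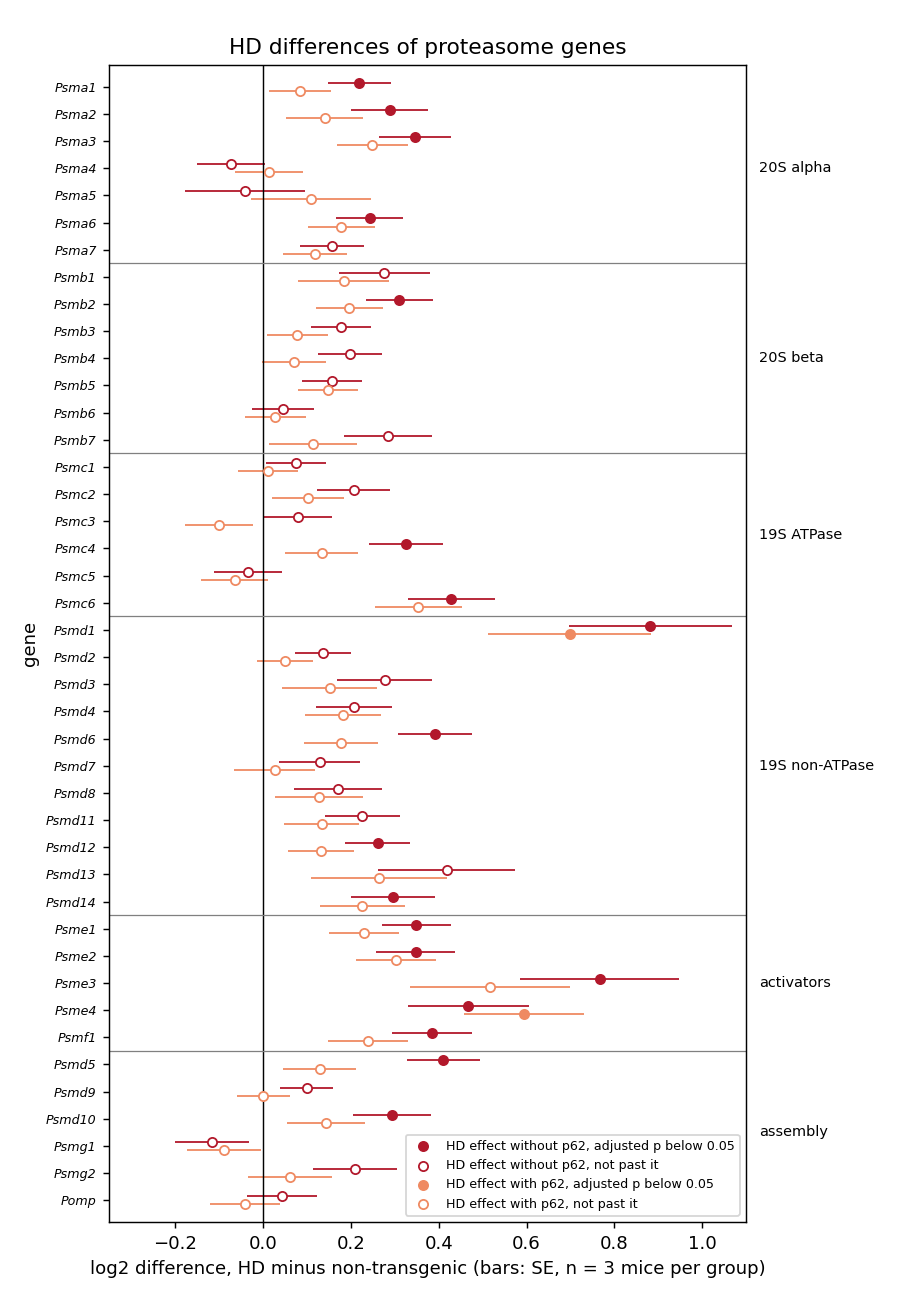
HD minus non-transgenic log2 difference of each of the 42 genes without p62 (dark red) and with p62 (orange), with bars for the SE (n = 3 mice per group) and filled points where the adjusted p was below 0.05. Of the filled points, 18 are for the comparison without p62 and 2 for the one with p62, and all lie above 0.

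Single arrays moved these counts. Without HD_p62KO 2 the number that rose without p62 was 3 (3.81% of all genes rose), without HD_p62KO 3 it was 7 (5.68%) and without NT_p62KO 3 it was 5 (5.59%). Leaving out HD_p62KO 1 gave 21 (15.3%). With p62, it was 0 without HD_p62WT 1, HD_p62WT 3 or NT_p62WT 1 (limma, 7, 8 and 7 at an unadjusted p below 0.05), where 0.878%, 0.753% and 1.04% of all genes rose. It was 1 without NT_p62WT 2 (2.25%), stayed at 2 without NT_p62WT 3 (0.904%) and was 3 without HD_p62WT 2 (4.72%). Arrays outside that comparison enter through the shared estimate of spread, and it was 1 without HD_p62KO 2 (3.46%) or NT_p62KO 1 (3.04%) and 4 without NT_p62KO 3 (6.15%). Without HD_p62KO 2 or without HD_p62WT 3 the mean HD count was 16, where 15.5% and 15.7% of all genes rose. Leaving out HD_p62WT 2 gave a mean HD count of 30 (21.3%). The share of all genes that rose moved with the count of members in most of these fits, but not in the one without NT_p62WT 3.

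The mean of the gene-centred values of all 42 genes was 0.034, 0.16 and 0.16 in HD_p62KO mice 1 to 3 against -0.071, -0.088 and -0.23 in NT_p62KO mice, and 0.15, -0.011 and 0.11 in HD_p62WT mice against -0.096, -0.052 and -0.062 in NT_p62WT mice. Every HD mouse was above every non-transgenic mouse on this mean. The spread of the whole array moved with it. The SD over all 19248 genes was 1.66, 1.73 and 1.71 in HD_p62KO mice against 1.66, 1.67 and 1.58 in NT_p62KO mice, and 1.71, 1.64 and 1.70 in HD_p62WT mice against 1.65, 1.66 and 1.65 in NT_p62WT mice. In all 4 groups the array with the lowest SD had the lowest proteasome mean of its group. With the array SD as a covariate, 0 of 42 rose without p62 (limma, 12 at an unadjusted p below 0.05), 2 with p62 (Psmc6 and Psme4) and 7 for the mean HD difference, where 1.62%, 3.06% and 6.92% of all genes rose. Those medians were 0.11, 0.057 and 0.077. The arrays called the 3 of small spread are HD_p62KO 1, HD_p62WT 2 and NT_p62KO 3, each lowest of its group in SD and in proteasome mean. They are not the 3 lowest of all: NT_p62WT 1 (1.65), lowest of its group, was kept, below HD_p62KO 1 (1.66). Without these 3, a setting chosen after seeing the data, 16, 8 and 28 of 42 rose in the same 3 comparisons, where 11.1%, 10.4% and 21.3% of all genes rose. The 7 genes that passed the mean HD test in all 23 settings run were Psma3, Psmc6, Psmd1, Psme1, Psme2, Psme3 and Psme4, except that Psmd1 was not among the brighter 50% of genes and so had 22 settings.

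**Figure D3:**
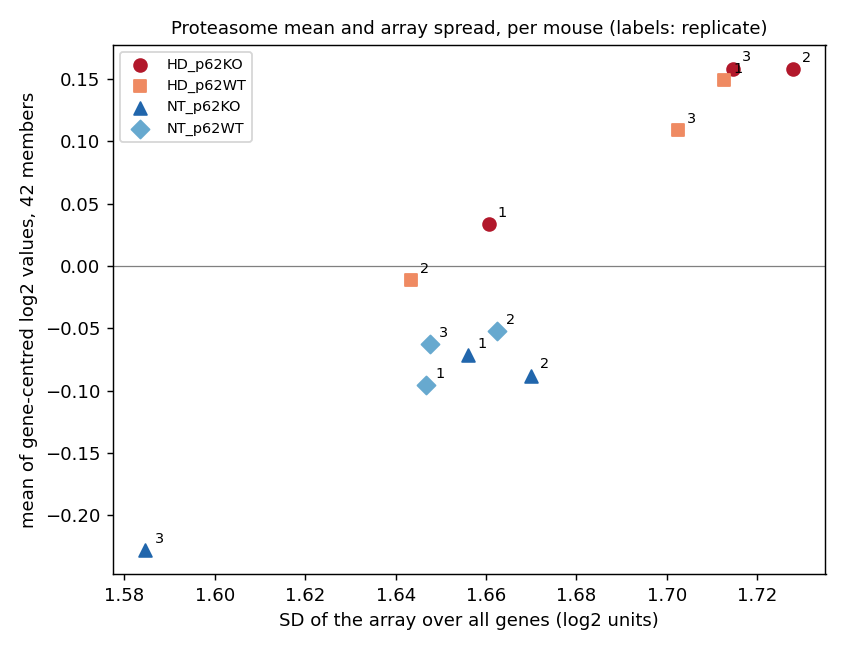
SD of each array over all 19248 genes (horizontal, log2 units) against the mean of the gene-centred log2 values of the 42 proteasome genes (vertical), 1 point per mouse, labelled with its replicate number. NT_p62KO 3 has the smallest array SD and the lowest proteasome mean, and within each group the array of smallest SD is the lowest point.

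NFE2L1 and its relative NFE2L2 bind the antioxidant response element, whose core is searched here as TGACNNNGC, and NF-Y binds the CCAAT box. The 250 bases before each listed start were searched for both on both strands (RefSeq, GRCm38.p6), where a window was given for 36 of 43 genes. Psma6, Psmc2 and Psme2 had several starts. Some windows lie within the gene as its position is given here, among them those of Psma3, Psmf1 and Psmd2. The Psmb6 window ends inside the gene, and its match lies there. TGACNNNGC lay in 15.4% of the 39 windows of these genes (Adrm1, Psmb5, Psmb6, Psmc6, Psmd12 and Psmd9) against 10.2% of all windows, and CCAAT in 33.3% against 33.8%. Of 21 genes with a window that rose in HD, 3 held TGACNNNGC, and of 14 that did not pass, 2 did (14.3% each). A match is no proof of binding, and the search says nothing of sites elsewhere. The windows shown are those of the catalytic subunit gene Psmb5 and of Psmc6, both with TGACNNNGC, and of Psme3 and Psmd1, the genes with the largest mean differences, of which the first holds a CCAAT box and the other neither motif. Capitals mark the matches, and each sequence runs 5′ to 3′ on the strand of the gene. The windows of Psmb5, Psme3 and Psmd1 end at the base before the gene's start, and that of Psmc6 ends on the first base of the gene as its position is given here. Psmb5 spans chr14:54617996-54618245, minus strand, Psmc6 chr14:45329574-45329823, plus strand, Psme3 chr11:101315963-101316212, plus strand and Psmd1 chr1:86064369-86064618, plus strand.
Psmb5: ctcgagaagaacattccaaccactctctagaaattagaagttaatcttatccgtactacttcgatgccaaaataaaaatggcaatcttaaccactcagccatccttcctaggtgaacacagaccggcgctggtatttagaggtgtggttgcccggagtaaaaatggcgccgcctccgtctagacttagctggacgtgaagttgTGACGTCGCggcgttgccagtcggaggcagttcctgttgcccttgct
Psmc6: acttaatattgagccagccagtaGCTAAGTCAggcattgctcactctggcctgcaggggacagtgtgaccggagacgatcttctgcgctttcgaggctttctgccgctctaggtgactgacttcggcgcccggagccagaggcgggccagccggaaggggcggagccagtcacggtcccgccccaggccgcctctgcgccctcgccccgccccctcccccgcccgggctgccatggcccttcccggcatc
Psme3: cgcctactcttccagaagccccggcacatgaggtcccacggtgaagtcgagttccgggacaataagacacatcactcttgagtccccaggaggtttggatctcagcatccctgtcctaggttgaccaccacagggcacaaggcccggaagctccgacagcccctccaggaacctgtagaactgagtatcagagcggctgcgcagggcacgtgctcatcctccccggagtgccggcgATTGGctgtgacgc
Psmd1: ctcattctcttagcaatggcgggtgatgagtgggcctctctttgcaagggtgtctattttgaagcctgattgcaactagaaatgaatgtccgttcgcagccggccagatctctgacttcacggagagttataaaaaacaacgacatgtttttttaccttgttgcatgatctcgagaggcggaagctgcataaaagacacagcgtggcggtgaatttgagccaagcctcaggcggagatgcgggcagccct

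Among the 7 alpha subunits, which form the outer rings and the gate of the core, 4 rose for the mean HD difference (median 0.15) and the same number without p62. With p62 present, 0 passed. Beside these stand 19.9%, 13.3% and 3.85% of all genes, so that the count with p62 is near the share of all genes. Psma3 (chr12:70969283-70995877) is the alpha subunit with the smallest p. Psma3 had log2 values of 9.74, 9.90 and 9.87 in HD_p62KO mice against 9.49, 9.62 and 9.36 in NT_p62KO mice, and 9.85, 9.68 and 9.77 in HD_p62WT mice against 9.58, 9.50 and 9.47 in NT_p62WT mice. The Psma3 values of HD mice lay above those of non-transgenic mice in both p62 genotypes, with no overlap. For Psma3 the HD difference was 0.35 ± 0.081 without p62 (adjusted p = 0.0144), 0.25 ± 0.081 with p62 (adjusted p = 0.0818) and 0.30 ± 0.057 as the mean of both (adjusted p = 0.0028). Psma6 (chr12:55384222-55418459) is another subunit of that ring. Psma6 had log2 values of 9.97, 10.17 and 10.12 in HD_p62KO mice against 9.91, 9.84 and 9.77 in NT_p62KO mice, and 10.18, 10.05 and 10.12 in HD_p62WT mice against 9.94, 10.02 and 9.86 in NT_p62WT mice. The Psma6 values of HD mice lay above those of non-transgenic mice in both p62 genotypes, with no overlap. For Psma6 the HD difference was 0.24 ± 0.076 without p62 (adjusted p = 0.0398), 0.18 ± 0.076 with p62 (adjusted p = 0.163) and 0.21 ± 0.054 as the mean of both (adjusted p = 0.0111). Psma2 (chr13:14613242-14625673) belongs to the same ring. Psma2 had log2 values of 9.07, 9.30 and 9.22 in HD_p62KO mice against 9.02, 8.90 and 8.81 in NT_p62KO mice, and 9.13, 8.96 and 9.20 in HD_p62WT mice against 9.02, 8.88 and 8.97 in NT_p62WT mice. The Psma2 values did not overlap in the p62 knockouts, where HD was higher, and overlapped in the p62 wild types. For Psma2 the HD difference was 0.29 ± 0.088 without p62 (adjusted p = 0.0374), 0.14 ± 0.088 with p62 (adjusted p = 0.344) and 0.21 ± 0.062 as the mean of both (adjusted p = 0.0206). Psma1 also rose, by 0.15 ± 0.050 (adjusted p = 0.0337). Psma4 (chr9:54950781-54958034) is the brightest alpha probe set that did not pass. Psma4 had log2 values of 9.84, 9.63 and 9.60 in HD_p62KO mice against 9.77, 9.86 and 9.67 in NT_p62KO mice, and 9.81, 9.79 and 9.74 in HD_p62WT mice against 9.75, 9.82 and 9.72 in NT_p62WT mice. The Psma4 values of HD and non-transgenic mice overlapped in both p62 genotypes. For Psma4 the HD difference was -0.074 ± 0.078 without p62 (adjusted p = 0.491), 0.013 ± 0.078 with p62 (adjusted p = 0.935) and -0.030 ± 0.055 as the mean of both (adjusted p = 0.679). Psma5 and Psma7 did not pass, at 0.034 ± 0.096 (adjusted p = 0.793) and 0.14 ± 0.052 (adjusted p = 0.0573).

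Of the 7 beta subunits, 4 rose for the mean HD difference (median 0.15), 1 without p62 and 0 with p62. Beside these stand 19.9%, 13.3% and 3.85% of all genes, so that the count without p62 is near the share of all genes. The proteolytic subunits are Psmb5, Psmb6 and Psmb7, with chymotrypsin-like, caspase-like and trypsin-like activity. Psmb5 (chr14:54614120-54617995) rose for the mean HD difference. Psmb5 had log2 values of 10.95, 10.98 and 10.996 in HD_p62KO mice against 10.78, 10.85 and 10.83 in NT_p62KO mice, and 11.06, 11.07 and 11.04 in HD_p62WT mice against 10.81, 11.04 and 10.88 in NT_p62WT mice. The Psmb5 values did not overlap in the p62 knockouts, where HD was higher, and overlapped in the p62 wild types. For Psmb5 the HD difference was 0.16 ± 0.068 without p62 (adjusted p = 0.111), 0.15 ± 0.068 with p62 (adjusted p = 0.196) and 0.15 ± 0.048 as the mean of both (adjusted p = 0.0287). Psmb7 rose by 0.20 ± 0.071 (adjusted p = 0.0452), and Psmb6 did not pass at 0.037 ± 0.049 (adjusted p = 0.572). Psmb2 (chr4:126677637-126709715) is a structural beta subunit. Psmb2 had log2 values of 11.06, 11.20 and 11.18 in HD_p62KO mice against 10.95, 10.78 and 10.77 in NT_p62KO mice, and 11.18, 11.001 and 11.12 in HD_p62WT mice against 10.90, 10.96 and 10.85 in NT_p62WT mice. The Psmb2 values of HD mice lay above those of non-transgenic mice in both p62 genotypes, with no overlap. For Psmb2 the HD difference was 0.31 ± 0.076 without p62 (adjusted p = 0.0168), 0.20 ± 0.076 with p62 (adjusted p = 0.13) and 0.25 ± 0.054 as the mean of both (adjusted p = 0.00446). Psmb1 (chr17:15475721-15498276) is a structural subunit too. Psmb1 had log2 values of 9.57, 9.67 and 9.61 in HD_p62KO mice against 9.45, 9.28 and 9.29 in NT_p62KO mice, and 9.67, 9.29 and 9.62 in HD_p62WT mice against 9.47, 9.36 and 9.20 in NT_p62WT mice. The Psmb1 values did not overlap in the p62 knockouts, where HD was higher, and overlapped in the p62 wild types. For Psmb1 the HD difference was 0.28 ± 0.10 without p62 (adjusted p = 0.0734), 0.18 ± 0.10 with p62 (adjusted p = 0.289) and 0.23 ± 0.073 as the mean of both (adjusted p = 0.0299). Psmb3 (chr11:97703434-97713500) is the brightest beta probe set that did not pass. Psmb3 had log2 values of 11.34, 11.39 and 11.49 in HD_p62KO mice against 11.29, 11.20 and 11.20 in NT_p62KO mice, and 11.46, 11.31 and 11.46 in HD_p62WT mice against 11.31, 11.36 and 11.32 in NT_p62WT mice. The Psmb3 values did not overlap in the p62 knockouts, where HD was higher, and overlapped in the p62 wild types. For Psmb3 the HD difference was 0.18 ± 0.069 without p62 (adjusted p = 0.0815), 0.078 ± 0.069 with p62 (adjusted p = 0.505) and 0.13 ± 0.049 as the mean of both (adjusted p = 0.0588). Psmb4 did not pass, at 0.13 ± 0.052 (adjusted p = 0.0611).

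The 6 ATPases Psmc1 to Psmc6 form the ring that unfolds substrates at the base of the cap. Of these, 2 rose for the mean HD difference (19.9% of all genes), with a class median of 0.099. The same 2 rose without p62 (13.3% of all genes), and counts this small say little about the class. Psmc6 (chr14:45329823-45349074) had the largest difference of the ring. Psmc6 had log2 values of 8.71, 8.93 and 8.83 in HD_p62KO mice against 8.46, 8.54 and 8.18 in NT_p62KO mice, and 8.90, 8.66 and 8.81 in HD_p62WT mice against 8.39, 8.47 and 8.45 in NT_p62WT mice. The Psmc6 values of HD mice lay above those of non-transgenic mice in both p62 genotypes, with no overlap. For Psmc6 the HD difference was 0.43 ± 0.099 without p62 (adjusted p = 0.0138), 0.35 ± 0.099 with p62 (adjusted p = 0.0516) and 0.39 ± 0.070 as the mean of both (adjusted p = 0.00194). Psmc4 (chr7:28041702-28050092) was the other ATPase gene that rose. Psmc4 had log2 values of 9.82, 9.98 and 9.92 in HD_p62KO mice against 9.66, 9.61 and 9.47 in NT_p62KO mice, and 10.01, 9.76 and 9.86 in HD_p62WT mice against 9.67, 9.82 and 9.74 in NT_p62WT mice. The Psmc4 values did not overlap in the p62 knockouts, where HD was higher, and overlapped in the p62 wild types. For Psmc4 the HD difference was 0.33 ± 0.084 without p62 (adjusted p = 0.0203), 0.13 ± 0.084 with p62 (adjusted p = 0.344) and 0.23 ± 0.059 as the mean of both (adjusted p = 0.012). Psmc3 (chr2:91054016-91059438) is the brightest ATPase probe set that did not pass. Psmc3 had log2 values of 10.36, 10.36 and 10.48 in HD_p62KO mice against 10.35, 10.35 and 10.27 in NT_p62KO mice, and 10.35, 10.22 and 10.47 in HD_p62WT mice against 10.45, 10.38 and 10.53 in NT_p62WT mice. The Psmc3 values did not overlap in the p62 knockouts, where HD was higher, and overlapped in the p62 wild types. For Psmc3 the HD difference was 0.080 ± 0.077 without p62 (adjusted p = 0.452), -0.10 ± 0.077 with p62 (adjusted p = 0.441) and -0.010 ± 0.055 as the mean of both (adjusted p = 0.892). Psmc1, Psmc2 and Psmc5 did not pass, at 0.043 ± 0.048 (adjusted p = 0.491), 0.15 ± 0.058 (adjusted p = 0.0571) and -0.049 ± 0.054 (adjusted p = 0.487).

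Of the 11 remaining cap subunits, 8 rose for the mean HD difference (median 0.20), 4 without p62 and 1 with p62. Over all genes 19.9%, 13.3% and 3.85% rose. Psmd1 (chr1:86064619-86139295) encodes RPN2, a large scaffold of the base. Psmd1 had log2 values of 7.13, 7.44 and 7.85 in HD_p62KO mice against 6.56, 6.63 and 6.59 in NT_p62KO mice, and 7.09, 6.91 and 7.35 in HD_p62WT mice against 6.26, 6.20 and 6.80 in NT_p62WT mice. The Psmd1 values of HD mice lay above those of non-transgenic mice in both p62 genotypes, with no overlap. For Psmd1 the HD difference was 0.88 ± 0.19 without p62 (adjusted p = 0.00969), 0.70 ± 0.19 with p62 (adjusted p = 0.044) and 0.79 ± 0.13 as the mean of both (adjusted p = 0.00133). The probe set of Psmd1 is dim, at the 28.3 percentile of gene means, and its HD_p62KO values span more than those of NT_p62KO mice. Psmd6 (chr14:14112185-14120945) encodes a subunit of the lid. Psmd6 had log2 values of 9.84, 10.02 and 10.12 in HD_p62KO mice against 9.55, 9.68 and 9.57 in NT_p62KO mice, and 9.98, 9.81 and 9.99 in HD_p62WT mice against 9.70, 9.73 and 9.83 in NT_p62WT mice. The Psmd6 values did not overlap in the p62 knockouts, where HD was higher, and overlapped in the p62 wild types. For Psmd6 the HD difference was 0.39 ± 0.084 without p62 (adjusted p = 0.0103), 0.18 ± 0.084 with p62 (adjusted p = 0.212) and 0.28 ± 0.060 as the mean of both (adjusted p = 0.00422). Psmd14 (chr2:61711694-61800376) encodes the deubiquitinase that removes ubiquitin chains from substrates. Psmd14 had log2 values of 9.99, 10.20 and 10.10 in HD_p62KO mice against 9.76, 10.02 and 9.62 in NT_p62KO mice, and 10.11, 10.05 and 10.002 in HD_p62WT mice against 9.77, 9.80 and 9.90 in NT_p62WT mice. The Psmd14 values did not overlap in the p62 wild types, where HD was higher, and overlapped in the p62 knockouts. For Psmd14 the HD difference was 0.30 ± 0.096 without p62 (adjusted p = 0.046), 0.23 ± 0.096 with p62 (adjusted p = 0.165) and 0.26 ± 0.068 as the mean of both (adjusted p = 0.0125). Psmd4, a ubiquitin receptor, rose by 0.19 ± 0.061 (adjusted p = 0.0287), and Psmd3, Psmd11, Psmd12 and Psmd13 rose by 0.21 ± 0.076 (adjusted p = 0.0456), 0.18 ± 0.060 (adjusted p = 0.0363), 0.20 ± 0.053 (adjusted p = 0.0145) and 0.34 ± 0.11 (adjusted p = 0.0314). Psmd2 (chr16:20651122-20663414) encodes RPN1, the other large scaffold, and is the brightest of the class that did not pass. Psmd2 had log2 values of 10.84, 10.92 and 10.90 in HD_p62KO mice against 10.78, 10.79 and 10.68 in NT_p62KO mice, and 10.90, 10.79 and 10.88 in HD_p62WT mice against 10.79, 10.86 and 10.77 in NT_p62WT mice. The Psmd2 values did not overlap in the p62 knockouts, where HD was higher, and overlapped in the p62 wild types. For Psmd2 the HD difference was 0.14 ± 0.063 without p62 (adjusted p = 0.13), 0.050 ± 0.063 with p62 (adjusted p = 0.659) and 0.093 ± 0.045 as the mean of both (adjusted p = 0.12). Psmd7 and Psmd8 did not pass, at 0.078 ± 0.065 (adjusted p = 0.357) and 0.15 ± 0.070 (adjusted p = 0.115).

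All 5 genes of proteins that bind the ends of the core, other than the cap, rose without p62 and for the mean HD difference (median 0.33), and 1 rose with p62. In these comparisons 13.3%, 19.9% and 3.85% of all genes rose. Psme4 (chr11:30771775-30881150) encodes PA200, a nuclear activator. Psme4 had log2 values of 8.25, 8.52 and 8.500 in HD_p62KO mice against 8.16, 8.03 and 7.67 in NT_p62KO mice, and 8.52, 8.43 and 8.35 in HD_p62WT mice against 7.58, 7.96 and 7.98 in NT_p62WT mice. The Psme4 values of HD mice lay above those of non-transgenic mice in both p62 genotypes, with no overlap. For Psme4 the HD difference was 0.47 ± 0.14 without p62 (adjusted p = 0.0317), 0.59 ± 0.14 with p62 (adjusted p = 0.0264) and 0.53 ± 0.097 as the mean of both (adjusted p = 0.00207). Psme1 (chr14:55578494-55581527) encodes PA28 alpha, which forms a ring with PA28 beta and is induced by interferon gamma. Psme1 had log2 values of 9.60, 9.79 and 9.65 in HD_p62KO mice against 9.40, 9.20 and 9.40 in NT_p62KO mice, and 9.71, 9.76 and 9.69 in HD_p62WT mice against 9.45, 9.58 and 9.43 in NT_p62WT mice. The Psme1 values of HD mice lay above those of non-transgenic mice in both p62 genotypes, with no overlap. For Psme1 the HD difference was 0.35 ± 0.079 without p62 (adjusted p = 0.0125), 0.23 ± 0.079 with p62 (adjusted p = 0.0932) and 0.29 ± 0.056 as the mean of both (adjusted p = 0.00279). Psme2 (chr14:55587440-55591101) encodes PA28 beta. Psme2 had log2 values of 9.33, 9.48 and 9.28 in HD_p62KO mice against 9.16, 8.85 and 9.03 in NT_p62KO mice, and 9.49, 9.30 and 9.37 in HD_p62WT mice against 9.13, 9.11 and 9.002 in NT_p62WT mice. The Psme2 values of HD mice lay above those of non-transgenic mice in both p62 genotypes, with no overlap. For Psme2 the HD difference was 0.35 ± 0.090 without p62 (adjusted p = 0.0207), 0.30 ± 0.090 with p62 (adjusted p = 0.0622) and 0.33 ± 0.064 as the mean of both (adjusted p = 0.00305). Psme3, which encodes the nuclear PA28 gamma, had log2 values of 9.28, 9.67 and 9.40 in HD_p62KO mice against 8.84, 8.93 and 8.28 in NT_p62KO mice, and 9.46, 9.01 and 9.46 in HD_p62WT mice against 8.59, 9.01 and 8.77 in NT_p62WT mice. The Psme3 values did not overlap in the p62 knockouts, where HD was higher, and overlapped in the p62 wild types. Psme3 rose by 0.77 ± 0.18 without p62 (adjusted p = 0.0151), and the 0.52 ± 0.18 with p62 did not pass (adjusted p = 0.101), while the mean of both was 0.64 ± 0.13 (adjusted p = 0.00342). Psmf1, which encodes PI31, an inhibitor of the core in vitro, rose by 0.38 ± 0.091 without p62 (adjusted p = 0.0147) and by 0.31 ± 0.064 (adjusted p = 0.00383) as the mean of both.

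Assembly factors build the rings and the base and do not stay in the finished complex. Of the 6, 2 rose for the mean HD difference (median 0.093) and the same 2 without p62, where 19.9% and 13.3% of all genes rose. Counts this small say little about the class. Psmd5 (chr2:34852087-34870965) encodes a chaperone of the base ATPases. Psmd5 had log2 values of 8.95, 9.18 and 9.20 in HD_p62KO mice against 8.76, 8.71 and 8.63 in NT_p62KO mice, and 9.09, 8.90 and 9.06 in HD_p62WT mice against 8.89, 8.94 and 8.84 in NT_p62WT mice. The Psmd5 values did not overlap in the p62 knockouts, where HD was higher, and overlapped in the p62 wild types. For Psmd5 the HD difference was 0.41 ± 0.083 without p62 (adjusted p = 0.00816), 0.13 ± 0.083 with p62 (adjusted p = 0.355) and 0.27 ± 0.059 as the mean of both (adjusted p = 0.00515). Psmd10 (chrX:140948425-140956711) encodes gankyrin, another such chaperone. Psmd10 had log2 values of 8.37, 8.44 and 8.53 in HD_p62KO mice against 8.19, 8.26 and 8.02 in NT_p62KO mice, and 8.51, 8.22 and 8.35 in HD_p62WT mice against 8.22, 8.26 and 8.16 in NT_p62WT mice. The Psmd10 values did not overlap in the p62 knockouts, where HD was higher, and overlapped in the p62 wild types. For Psmd10 the HD difference was 0.29 ± 0.089 without p62 (adjusted p = 0.0355), 0.14 ± 0.089 with p62 (adjusted p = 0.332) and 0.22 ± 0.063 as the mean of both (adjusted p = 0.0192). Pomp (chr5:147860628-147875784) encodes the maturation factor of the beta rings and is the brightest of the class that did not pass. Pomp had log2 values of 8.80, 9.02 and 8.96 in HD_p62KO mice against 8.89, 8.94 and 8.82 in NT_p62KO mice, and 8.88, 8.87 and 8.85 in HD_p62WT mice against 8.77, 8.94 and 9.01 in NT_p62WT mice. The Pomp values of HD and non-transgenic mice overlapped in both p62 genotypes. For Pomp the HD difference was 0.043 ± 0.079 without p62 (adjusted p = 0.701), -0.040 ± 0.079 with p62 (adjusted p = 0.783) and 0.0013 ± 0.056 as the mean of both (adjusted p = 0.987). Psmd9, another base chaperone, and the alpha ring chaperones Psmg1 and Psmg2 did not pass, at 0.050 ± 0.043 (adjusted p = 0.368), -0.10 ± 0.060 (adjusted p = 0.194) and 0.14 ± 0.067 (adjusted p = 0.131).

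**Figure D4:**
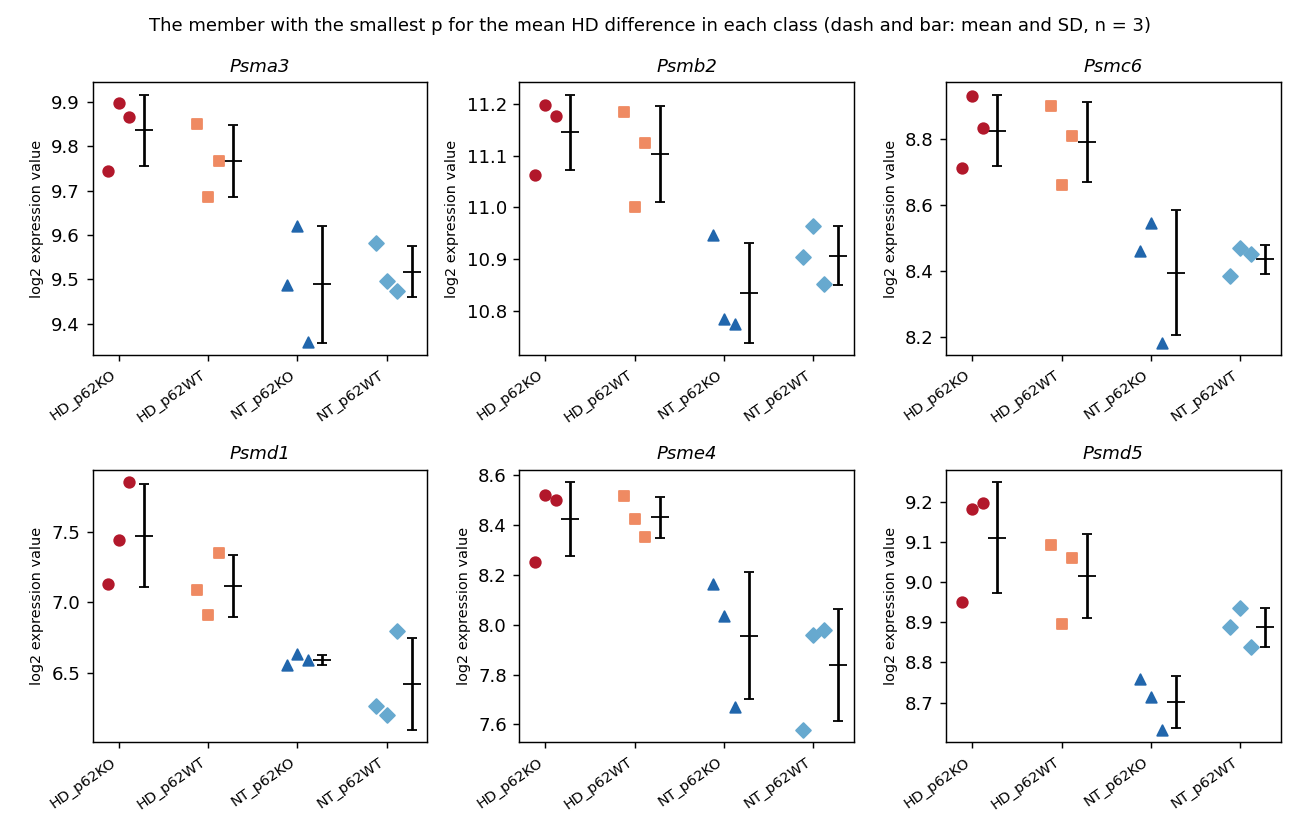
Log2 expression value per mouse in the 4 groups for the gene with the smallest p for the mean HD difference in each of 6 classes, with the dash and bar for mean and SD (n = 3), and each panel with its own vertical scale. Psma3, Psmb2, Psmc6, Psmd1 and Psme4 separate all HD mice from all non-transgenic mice, and Psmd5 does so in the p62 knockouts.

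Core and cap genes had close median differences. The median HD difference was 0.21 for core and 0.23 for cap genes without p62, 0.12 and 0.13 with p62, and 0.15 and 0.19 as the mean. Subtracting the cap from the core mean in each mouse gave -0.0021, -0.082 and -0.063 in HD_p62KO mice against 0.038, -0.029 and 0.079 in NT_p62KO mice, and 0.0028, 0.025 and -0.044 in HD_p62WT mice against 0.058, 0.060 and -0.042 in NT_p62WT mice. Both pairs of groups overlapped on this measure. Without the 3 arrays of small spread, the core minus cap difference of medians without p62 was 0.038, against -0.017 with all mice. With 1 mouse left out it lay between -0.061 (without NT_p62KO 1) and 0.021 (without NT_p62KO 3), and with p62 present between -0.046 (without NT_p62WT 2) and 0.015 (without HD_p62WT 1), against -0.017 with all mice, so that it had no fixed sign in either comparison. For the mean HD difference it lay between -0.054 and -0.013, against -0.042.

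**Figure D5:**
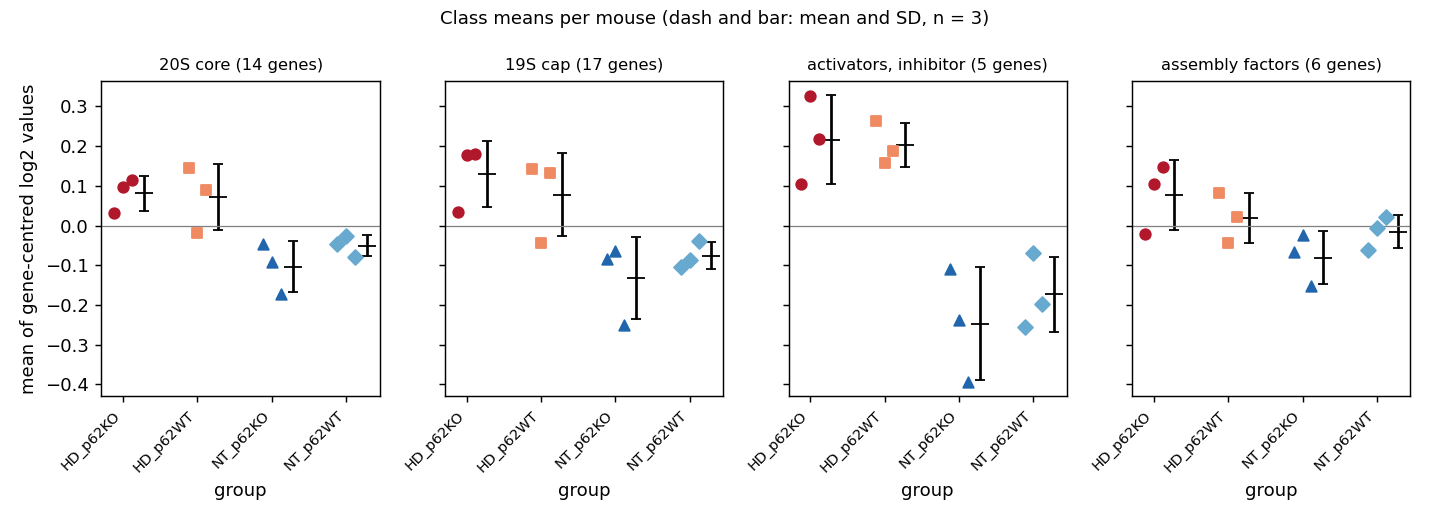
Mean of the gene-centred log2 values of each class in each mouse, for the 20S core, the 19S cap, the activators with the inhibitor, and the assembly factors, on one vertical scale with mean and SD (n = 3). The HD and non-transgenic mice are farthest apart in the activators, and the core and cap panels cover similar ranges.

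Loss of p62 changed 0 of 42 genes in HD mice (limma with adjustment over all genes, against 0.0052% of all genes, which is Sqstm1 itself), and 0 had an unadjusted p below 0.05, against 2.88% of all genes. In non-transgenic mice it changed 0 of 42 (against 0.0052%), and 1 had an unadjusted p below 0.05, against 3.32%. The median p62 difference was 0.033 in HD mice (all genes -0.0022) and -0.063 in non-transgenic mice (all genes -0.0063). In HD mice 28 of 42 were positive, and in non-transgenic mice 37 of 42 were negative. Signs of genes measured in the same mice are not independent. The median in HD mice was -0.017 without HD_p62WT 2 and 0.074 without HD_p62KO 1, and in non-transgenic mice it was -0.10 without NT_p62KO 1 and -0.018 without NT_p62KO 3. In non-transgenic mice, 8 of 42 genes were lower in every NT_p62KO mouse than in every NT_p62WT mouse (4% of all genes), and in HD mice 2 of 42 were lower in every HD_p62KO mouse than in every HD_p62WT mouse (4.11%). The opposite, higher in every knockout, held for 0 of 42 in non-transgenic mice (3.88% of all genes) and for 0 of 42 in HD mice (3.26%). The 8 were Psma1, Psmb3, Psmb4, Psmc3, Psmc4, Psmd5, Psmd6 and Psme1, and the other 2 were Psma7 and Psmb5. Choroid plexus markers moved with the same comparison, at 0.49, 0.44 and 0.67 around their mean in NT_p62KO mice against -0.84, -0.40 and -0.69 in NT_p62WT mice. With 8 of 8 markers measured, 7 did not overlap. With the choroid plexus level as a covariate, 0 of 42 genes passed in either p62 comparison. As 0 passed without it too, this does not show the part of that tissue in the p62 values, which was not tested further.

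Psmd5 came nearest to a difference between the HD differences. It was 0.28 ± 0.12 larger without p62 (unadjusted p = 0.0335, adjusted p = 0.991), with a 95% interval of 0.026 to 0.54. In non-transgenic mice, Psmd5 was -0.19 ± 0.083 without p62 relative to with p62 (adjusted p = 1). For Psme3, the next by size, the 95% interval of the difference of HD differences was -0.31 to 0.81, and for Psmd1 it was -0.39 to 0.76. These intervals are wide beside the HD differences themselves, so that equal responses with and without p62 were not shown.

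Other probe sets of the same genes gave mean HD differences of the same sign, but Psma5 and Psmc1 differed in whether they passed. Near-identical copies elsewhere in the genome may share the probes of these sets and of the sets used above. The chromosome positions given are those of the genes. Probe set numbers follow the chromosomes among the genes followed. Those used for Psma3 and Psmd2 fall out of that order, unlike their second ones, and which copy each reads was not tested. The second probe set of Psma3 rose by 0.30 ± 0.067 for the mean HD difference (adjusted p = 0.0054). For Psma5 and Psmc1, the brightest probe sets did not pass, at 0.034 and 0.043. Their second ones rose by 0.14 ± 0.050 (adjusted p = 0.0451) and 0.20 ± 0.057 (adjusted p = 0.0177). That of Psmd2 did not pass, at 0.12 ± 0.047 (adjusted p = 0.0598). A probe set shared by Psme2 and its near copy Psme2b rose by 0.51 ± 0.060 (adjusted p = 0.000177).

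Of 41 other genes of the proteasome pathway, 31 were measured, and for the mean HD difference 16 rose and 2 fell, against 19.9% and 15% of all genes. Without p62, 8 rose and 0 fell, against 13.3% and 8.34% of all genes. With p62, 2 rose and 1 fell, against 3.85% and 3.24%, which is near those shares and gives no result about these genes. Nfe2l2 encodes NRF2, a regulator of antioxidant genes. Nfe2l2 had log2 values of 8.51, 8.79 and 8.74 in HD_p62KO mice against 8.25, 8.02 and 8.12 in NT_p62KO mice, and 8.69, 8.54 and 8.64 in HD_p62WT mice against 8.07, 8.35 and 8.03 in NT_p62WT mice. The Nfe2l2 values of HD mice lay above those of non-transgenic mice in both p62 genotypes, with no overlap. For Nfe2l2 the HD difference was 0.55 ± 0.10 without p62 (adjusted p = 0.00613), 0.47 ± 0.10 with p62 (adjusted p = 0.0226) and 0.51 ± 0.073 as the mean of both (adjusted p = 0.000613). Ngly1 encodes the N-glycanase that deglycosylates NFE2L1. Ngly1 had log2 values of 9.05, 9.16 and 9.18 in HD_p62KO mice against 8.74, 8.90 and 8.55 in NT_p62KO mice, and 9.16, 9.05 and 9.02 in HD_p62WT mice against 8.78, 8.79 and 8.68 in NT_p62WT mice. The Ngly1 values of HD mice lay above those of non-transgenic mice in both p62 genotypes, with no overlap. For Ngly1 the HD difference was 0.40 ± 0.089 without p62 (adjusted p = 0.0121), 0.32 ± 0.089 with p62 (adjusted p = 0.0483) and 0.36 ± 0.063 as the mean of both (adjusted p = 0.00165). Vcp, the segregase that extracts proteins including NFE2L1 from membranes, rose by 0.30 ± 0.055 (adjusted p = 0.00217). Rad23b, a shuttle that carries ubiquitinated substrates to the proteasome, rose by 0.26 ± 0.059 (adjusted p = 0.0066). The ligase gene Ube3c and the ubiquitin-activating enzyme gene Uba6 rose by 0.26 ± 0.060 (adjusted p = 0.00679) and 0.38 ± 0.092 (adjusted p = 0.0083).

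The genes that fell were named after their values were seen. Nfe2l1 had log2 values of 11.77, 11.97 and 11.87 in HD_p62KO mice against 12.02, 11.94 and 11.94 in NT_p62KO mice, and 11.84, 11.77 and 11.74 in HD_p62WT mice against 12.02, 12.02 and 12.06 in NT_p62WT mice. It fell for the mean HD difference, -0.17 ± 0.048 (adjusted p = 0.0164), and with p62, -0.25 ± 0.068 (adjusted p = 0.0457). With p62, every HD value was below every non-transgenic one, and without p62 the groups overlapped. Ubqln4, a shuttle of ubiquitinated proteins, fell by 0.16 ± 0.049 (adjusted p = 0.0269). Of the immunoproteasome subunits, which replace the catalytic beta subunits after interferon, Psmb10 rose by 0.17 ± 0.052 (adjusted p = 0.0233), while Psmb8 and Psmb9 did not pass at 0.11 ± 0.065 (adjusted p = 0.189) and -0.081 ± 0.067 (adjusted p = 0.354).

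Some markers of other cells passed too for the mean HD difference, where 15% of all genes fell and 19.9% rose. Of 7 oligodendrocyte markers 4 fell, of 8 astrocyte markers 3 fell and 1 rose, and of 7 microglia markers 1 rose (Ctss). Of 6 endothelial and mural markers 1 fell, and of 6 cortical neuron markers 2 fell. All 6 cortical neuron markers had a negative mean HD difference, with a median of -0.58. Around their mean, they varied from -0.73 in HD_p62KO 2 to 0.73 in NT_p62KO 1, and HD and non-transgenic mice overlapped. The microglia and the endothelial and mural counts are near those shares and give no result about these cells. The part of all these markers in the proteasome values was not tested.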

How the data were processed

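RNA from whole striatum of 12 mice, 3 per group, was hybridised to Affymetrix whole-transcript arrays (labels' protocols). What the authors deposited is 1 log2 value for each probe set and mouse. RMA is the tool named in the submitters' processing notes, and the sources used here give no settings for it. Because RMA equalizes arrays, differences are relative to the other genes. Detection calls were not used here.

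The platform table gave 1 symbol for 19942 of 24055 probe sets, several for 1225 and no entry for 2888. For each gene the probe set of highest mean value was kept, which left 19248 genes. Array medians over these genes lay between 7.79 and 7.83.

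A mean per group was fitted to all 12 arrays with limma 3.58.1 in R 4.3.3 (lmFit and eBayes, without trend or robust fitting), with Benjamini-Hochberg adjustment across the 19248 genes for each of 6 contrasts and a threshold of 0.05. Groups and replicate numbers came from the titles, which call the replicates biological. Each was taken as 1 mouse, and the p-values reflect only the spread among these mice. Precision is limited by 3 arrays per group. Arrays of 1 group correlated at 0.990 to 0.996, and none were identical. No scan dates were used here. Fits were tested on simulated data.

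The genes followed, the lists and the naming rule were chosen with earlier results of these data known. By that rule, values of each mouse were given for up to 3 genes per class with the smallest p for the mean HD difference among those that passed, and for the brightest of each class that did not pass in any contrast. Psme3 and Nfe2l1 were added for their size and direction. Upstream windows came from RefSeq (GRCm38.p6) and were searched with Python 3.11.15. Windows of Psmb1, Psmb2, Psmb7, Psmc3, Psmd3, Psmd7 and Psmg2 were not used here. Alternatives were another normalization, filters, probe set averages, variance settings, array weights, covariates, the replicate number as a block and leaving out each mouse, and, chosen after seeing the data, leaving out the 3 arrays of small spread.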

Additional observations from a re-analysis of the deposited data

How the results depend on the processing

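For the HD difference without p62, the 18 genes that rose became 11 with the replicate block (9.88% of all genes rose), 0 with the array SD as a covariate (limma, 12 at an unadjusted p below 0.05, 1.62% of all genes) and 5 with only the 2 groups compared (5.75%), and 3 to 21 when 1 mouse was left out. For the HD difference with p62, the 2 genes became 1 with the replicate block (1.82% of all genes), 4 after quantile normalization again (4.67%), 4 and 5 when genes below the 25th and 50th percentile of mean brightness were left out (7.24% and 11.1%), 4 with trended and robust variances (5.29%), 12 with array weights (14.3%), 0 with choroid plexus level added as a covariate (8 at an unadjusted p below 0.05, 1.54% of all genes), 8 without the 3 arrays of small spread (10.4%), and 0 to 4 when 1 mouse was left out. For the mean HD difference, the 25 genes became 7 with the array SD as a covariate (6.92%). With 1 mouse left out they became 16 to 30, where 15.5% to 21.3% of all genes rose. Smaller changes are not all listed. For the mean HD difference, 20 rose with the replicate block (17.7%), 21 after quantile normalization again (17.7%) and 32 with array weights (25.3%). Without p62, 14 rose after quantile normalization again (11.3%) and 25 with array weights (19%). The difference of the HD differences and both p62 comparisons gave 0 genes under all settings run. The core minus cap difference of medians without p62 became 0.038 without the 3 arrays of small spread, and with 1 mouse left out it took both signs without p62 and with p62. Where the cause is not in the setting itself, the cause was not tested. No named gene that passed reversed under these settings.

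The replicate numbers did not pair the mice: 18 correlations of same-numbered arrays lay between -0.34 and 0.21, and 4 were over 0.1. Over single named genes and settings, 2814 values kept their side of the threshold, 122 lost it and 40 passed it anew. Those kept include the difference of the HD differences and both p62 comparisons, where no gene passed under any setting. The changes all lie in the other comparisons, so that these counts overstate how steady the HD results were. Signal over background could not be judged from RMA values.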
